A study of Mus musculus with 8 samples.

Results

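Expression of 10 genes of the bone morphogenetic protein (BMP) pathway was examined in germline stem (GS) cells, a culture of spermatogonia in which stem cells self-renew. The genes were chosen by name out of the 31010 genes in the table, and all 10 were present. They were the ligand gene Bmp4, the receptor genes Bmpr1a and Bmpr2, the signal-transducing genes Smad1 and Smad5, the inhibitory genes Smad6 and Smad7, and the target genes Id1, Id2 and Id3. RNA-seq was performed on 8 GS cell lines of wild-type genotype and B6 background. Of these, 4 (ICSI-F1) came from first-generation offspring obtained by intracytoplasmic sperm injection, the injection of a sperm into an oocyte, and 4 (control-F1) from offspring of natural mating. To found each culture, adult testis cells were enriched with magnetic beads for CD9, a surface protein of spermatogonia, and all lines were grown with GDNF and FGF2. The labels give no mouse for a line, although the study's supplement numbers individual F1 mice with the same numbers as the lines. Here n is the number of lines, and the p-values measure the spread between these lines.

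The sample titles came in 2 spellings, called label forms here. Label form 1 comprised control lines 29 and 37 and ICSI lines 11 and 17, with hyphens in their titles. Label form 2 comprised control lines 44 and 45 and ICSI lines 20 and 21, with the low line character. The submitters' processing notes also differed between the forms. They list cutadapt 3.4, STAR 2.7.9a and HTSeq 0.13.5 for the 4 lines of label form 1 and cutadapt 1.16, STAR 2.6.0c and HTSeq 0.11.2 for the 4 lines of label form 2, whereas the study's methods give the first set for all lines. Which set made the deposited values, and whether the lines were also cultured or sequenced at different times, is not given in the sources used here. With 2 control and 2 ICSI lines per form, group and form could be compared separately.

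BMPs are secreted ligands that bring together type I receptors, such as BMPR1A, and type II receptors, such as BMPR2. The activated type I receptor phosphorylates SMAD1 and SMAD5, which enter the nucleus with SMAD4 and switch on target genes. Among these targets are the Id genes, whose products bind E proteins and keep them from DNA, and Smad6 and Smad7, whose products block the pathway in turn. BMP4 is known for its part in germ cell specification in the embryo and, in the testis, in the differentiation of spermatogonia. ID4 marks spermatogonial stem cells.

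The values were FPKM (fragments per kilobase of gene and per unit of sequencing depth, scaled by the authors between samples), and all tests used log2(FPKM + 1). Reads recovered from the FPKM steps numbered 24218897 to 43413243 per line, with more reads in every line of label form 2 than in any line of label form 1. For a 1 kb gene, a single read equalled 0.0227 to 0.0401 FPKM. All 8 germ cell genes of a marker list were at a mean of at least 1 FPKM, and Ddx4 was at 224 ± 34.4 FPKM (SD, n = 8). Fibroblast markers, one of which (Thy1) spermatogonia also express, were likewise present: all 18 were at a mean of at least 1 FPKM, and their summed level ranged from 281 to 1078 FPKM in the control lines and from 330 to 659 FPKM in the ICSI lines. For RT-PCR samples, the study's methods describe a step on gelatin-coated plates that depletes embryonic fibroblasts from GS cells. Of other somatic markers, 3 of 7 Sertoli cell genes (Sox9, Wt1 and Rhox5), 1 of 6 Leydig cell genes (Star), 3 of 5 endothelial genes (Pecam1, Cdh5 and Kdr) and 1 of 3 blood cell genes (Cd68) reached a mean of 1 FPKM. Their summed levels per line were 5.19 to 9.09, 0.669 to 1.89, 3.104 to 9.60 and 5.10 to 17.2 FPKM respectively. Of the same lists, Amh (Sertoli cells) and Ptprc (blood cells) were at 0.0359 and 0.0891 FPKM, and Cyp17a1 (Leydig cells) was listed at 0 in every line. Low values of these single genes do not show that a cell type was absent, since other markers of the same lists reached 1 FPKM. In such bulk samples, fewer cells of a type and less RNA per cell cannot be told apart.

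The 10 genes spanned a wide range of levels, with the type I receptor at the top and Id2 at the bottom. FPKM is a level per length, so genes can be set beside each other, with a limit. The length is that of all annotated exons of a gene, 17983 bases for Bmpr2 and 2248 for Bmp4. A gene expressed mainly as a shorter transcript would read low in every line. The test below measures the spread between lines and not such a shift. Over the 8 lines, Bmpr1a had a mean of 32.1 FPKM, Id3 of 19.4 FPKM, Id1 of 18.03 FPKM, Smad5 of 12.001 FPKM and Smad7 of 8.49 FPKM. Bmpr2 followed at 3.11 FPKM, Smad1 at 2.995 FPKM and Smad6 at 2.90 FPKM. Bmp4 and Id2 had the lowest means, 0.897 and 0.492 FPKM, and were below the minimum mean of 1 FPKM for the fit across all genes. Adjacent genes in this order were compared within lines by an exact sign-flip permutation test (two-sided, 9 pairs, Benjamini-Hochberg adjustment), whose smallest raw p is 0.0078. Of the 9 adjacent pairs, 6 differed, and 4 differed without control line 29, where Id1 ranked above Id3 and the pairs Id3 and Smad5 (adjusted exact p = 0.0938) and Bmp4 and Id2 (adjusted exact p = 0.0563) did not pass. Id3 and Id1 did not differ beyond their spread (adjusted exact p = 0.797), nor did Bmpr2 and Smad1 (adjusted exact p = 0.650) or Smad1 and Smad6 (adjusted exact p = 0.643).

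**Figure D1:**
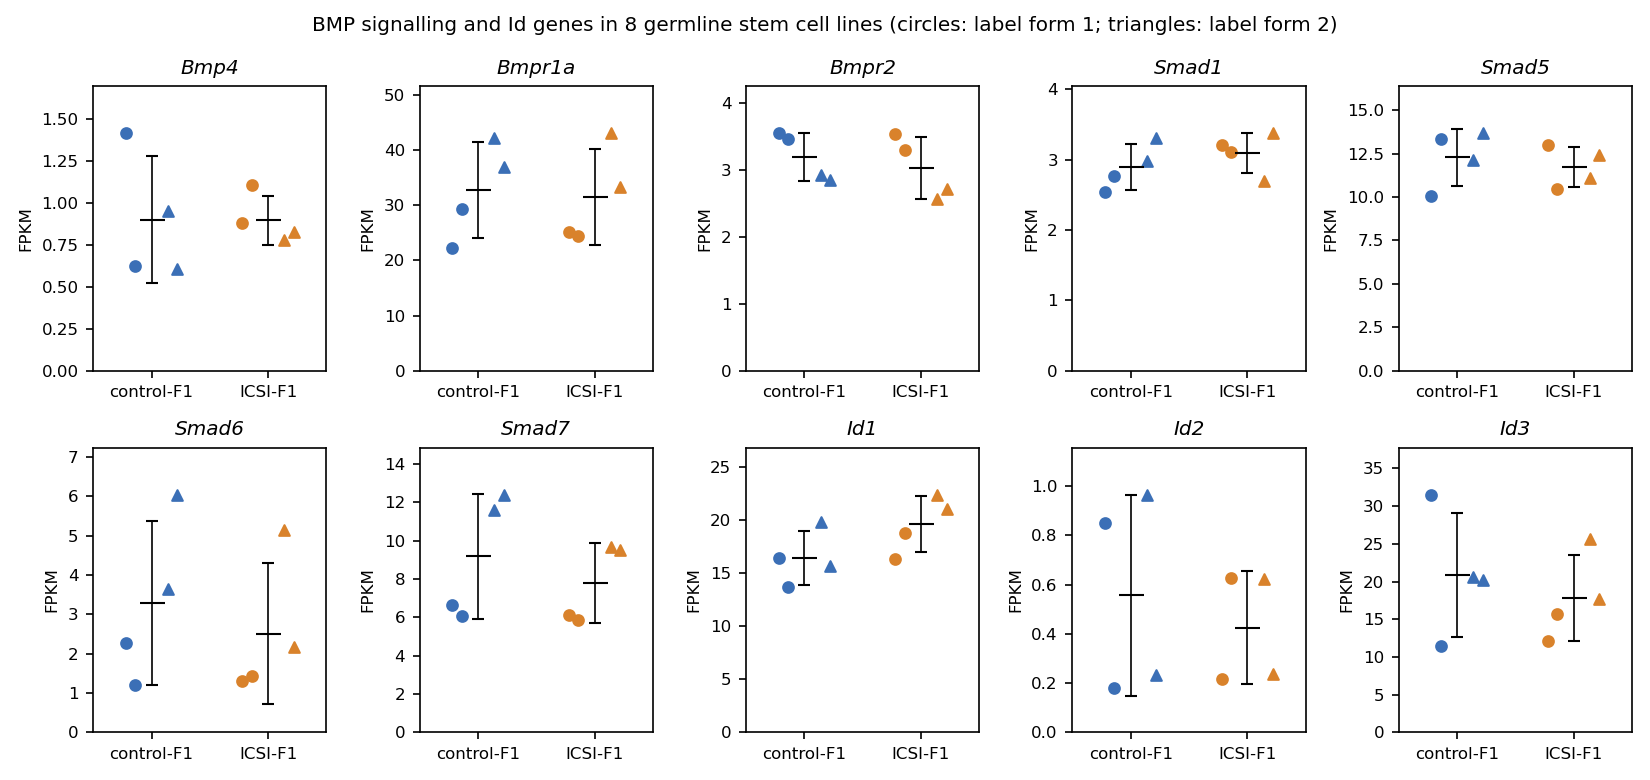
FPKM (y axis, from 0) of the 10 genes in the 4 control-F1 lines (blue) and the 4 ICSI-F1 lines (orange). Circles are label form 1, triangles label form 2, and horizontal bars with whiskers give the group mean and SD. Groups overlap for every gene, whereas for Bmpr1a and Smad7 all triangles lie above all circles and for Bmpr2 all lie below.

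Bmp4 (chr14:46383520-46390669, GRCm38, minus strand) encodes the ligand of the set. It was at 1.41, 0.624, 0.951 and 0.605 FPKM in control lines 29, 37, 44 and 45, and at 0.879, 1.10, 0.776 and 0.825 FPKM in ICSI lines 11, 17, 20 and 21. Control line 29 was the highest and the groups overlapped, with 35 to 84 reads behind each value. The mean was 0.898 ± 0.377 FPKM (SD, n = 4) for control lines and 0.896 ± 0.145 FPKM (SD, n = 4) for ICSI lines (exact permutation p = 0.943, two-sided). Of the 14 other BMP and GDF ligand genes of a pathway list, 3 reached a mean of 1 FPKM. Bmp7 was the highest at 8.46 ± 2.62 FPKM (SD, n = 8), followed by Bmp6 at 4.06 ± 1.304 FPKM (SD, n = 8).

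The receptor genes differed in level and in the direction in which they varied. Bmpr1a (chr14:34410734-34503341, minus strand), the type I receptor gene, was at 22.3, 29.3, 42.1 and 37.01 FPKM in control lines 29, 37, 44 and 45, and at 25.2, 24.4, 43.0 and 33.2 FPKM in ICSI lines 11, 17, 20 and 21. The 4 highest lines, from both groups, were those of label form 2. Bmpr2 (chr1:59763400-59879014, plus strand), the type II receptor gene, was at 3.55, 3.46, 2.92 and 2.85 FPKM in the control lines and at 3.54, 3.31, 2.57 and 2.72 FPKM in the ICSI lines, in the same order. Here the 4 lowest lines were those of label form 2. The ratio of Bmpr1a to Bmpr2 accordingly ran from 6.30 in control line 29 to 16.7 in ICSI line 20. Among the 6 other receptor genes listed, Acvr2b and Acvr2a, which encode activin type II receptors that also bind BMPs, were the highest at 12.2 and 5.02 FPKM, so both exceeded Bmpr2 in mean level.

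Among the signal transducers, Smad5 was at a higher level than Smad1, and both varied little. Smad1 (chr8:79338395-79399518, minus strand) was at 2.54, 2.77, 2.97 and 3.31 FPKM in control lines 29, 37, 44 and 45, and at 3.21, 3.104, 2.69 and 3.37 FPKM in ICSI lines 11, 17, 20 and 21. Smad5 (chr13:56703010-56742377, plus strand) ranged from 10.04 FPKM in control line 29 to 13.7 FPKM in control line 45. The highest line was 1.33 times the lowest for Smad1 and 1.36 times for Smad5. The ratio of Smad5 to Smad1 ranged from 3.36 to 4.82 over the 8 lines, and groups and forms overlapped for both genes. Smad4, the shared partner, was at 23.6 ± 3.41 FPKM (SD, n = 8), and Smad9, the third BMP transducer, was at 0.444 ± 0.0880 FPKM (SD, n = 8).

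The inhibitory Smads varied more. Smad6 (chr9:63953076-64022059, minus strand), whose product acts mainly against BMP receptors, was at 2.26, 1.21, 3.65 and 6.03 FPKM in control lines 29, 37, 44 and 45, and at 1.29, 1.43, 5.14 and 2.16 FPKM in ICSI lines 11, 17, 20 and 21. The highest line was 4.97 times the lowest.

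The bases before the start of Smad6 are shown beside those of Bmp4 and Smad5. These were the windows free of annotated exons among those of the 8 members matched in the RefSeq promoter table (GRCm38.p6). Id1 and Smad7 were not matched. That was the only ground for the choice, and the comparison of label forms played no part in it. Each is the 250 bases upstream of the RefSeq start, 5′ to 3′ on the gene's strand, with the letters GTCT or AGAC, a short Smad-binding element, in capitals.
Smad6, chr9:64022060-64022309 (minus strand): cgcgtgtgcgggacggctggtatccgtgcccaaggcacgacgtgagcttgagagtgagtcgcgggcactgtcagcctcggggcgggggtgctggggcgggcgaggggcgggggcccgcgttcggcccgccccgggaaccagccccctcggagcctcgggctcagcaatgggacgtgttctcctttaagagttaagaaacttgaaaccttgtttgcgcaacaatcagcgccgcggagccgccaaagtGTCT
Smad5, chr13:56702760-56703009 (plus strand): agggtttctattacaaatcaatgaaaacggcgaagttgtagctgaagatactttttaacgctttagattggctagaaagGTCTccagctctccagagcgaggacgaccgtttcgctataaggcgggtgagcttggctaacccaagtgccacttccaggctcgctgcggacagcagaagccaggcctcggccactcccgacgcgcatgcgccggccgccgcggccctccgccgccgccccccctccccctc
Bmp4, chr14:46390670-46390919 (minus strand): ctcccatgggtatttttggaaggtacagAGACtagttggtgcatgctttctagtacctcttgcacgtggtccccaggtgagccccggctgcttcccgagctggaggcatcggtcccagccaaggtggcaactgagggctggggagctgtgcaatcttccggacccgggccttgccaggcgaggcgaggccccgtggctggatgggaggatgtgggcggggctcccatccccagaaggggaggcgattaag
Each of the 3 windows held this element once, as did 82.9% of all 32851 promoter windows of the same length at least once. The longer element CAGAC or GTCTG, which contains the shorter one, was in none of the 3 and in 42.2% of all windows. GGCGCC, a GC-rich Smad motif that reads the same on both strands, was in none of the 3 and in 9.59% of all windows. In windows that overlapped annotated exons and are not printed, GGCGCC lay once each in those of Bmpr1a, Bmpr2 and Id2 and in 1 of the further Smad5 windows, and CAGAC or GTCTG lay in the Id3 window 2 times and in 1 other of the further Smad5 windows once. The short element GTCT or AGAC was in none of the windows of Bmpr1a, Bmpr2 and Smad1. It lay 1 time in the Id2 window and 2 times in the Id3 window. In the further Smad5 windows it lay 1 time in one and 2 times in the other. Both strands were searched. GC content was 60% to 78.8% in the windows of the members, beside a median of 52.4% over all windows. GGCGCC holds only G and C, and the part of GC content in its matches was not tested. A match is a description of letters and not a bound site.

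Smad7 (chr18:75367529-75395935, plus strand), whose product acts against both BMP and TGF-beta receptors, was at 6.67, 6.07, 11.6 and 12.4 FPKM in the control lines and at 6.13, 5.85, 9.67 and 9.52 FPKM in the ICSI lines, respectively. Its lines fell into a lower set, label form 1, and a higher set, label form 2. Smad7 was 1.88 to 5.01 times the level of Smad6 in each line.

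The Id genes showed 3 different patterns over the lines. Id1 (chr2:152736251-152737410, plus strand) was at 16.4, 13.7, 19.8 and 15.7 FPKM in control lines 29, 37, 44 and 45, and at 16.4, 18.8, 22.4 and 21.04 FPKM in ICSI lines 11, 17, 20 and 21. The 2 highest lines were ICSI lines and the lowest was a control line, but the groups overlapped. Id3 (chr4:136143497-136145755, plus strand) was at 31.5, 11.5, 20.6 and 20.2 FPKM in the control lines and at 12.2, 15.7, 25.7 and 17.7 FPKM in the ICSI lines, in the same order. Control line 29 had 2.75 times the level of control line 37, so that both extremes lay in 1 group. Id2 (chr12:25093799-25097140, minus strand) was at 0.852, 0.181, 0.964 and 0.232 FPKM in the control lines and at 0.218, 0.626, 0.622 and 0.238 FPKM in the ICSI lines. These Id2 values rested on 11 to 77 reads per line. They fell into 4 lines at 0.622 to 0.964 FPKM and 4 lines at 0.181 to 0.238 FPKM, with 2 lines of each group and of each form in either set.

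The fibroblast markers moved with Id2 over the lines. Their mean log2(FPKM + 1) was 5.13 in control line 29, 4.98 in control line 44, 4.56 in ICSI line 20 and 4.11 in ICSI line 17, the same 4 lines in which Id2 was high. It was 3.38 to 3.77 in the other 4 lines. Id3 and Bmp4 were also highest in control line 29, the line with the highest fibroblast score, whereas Id1 was highest in ICSI line 20. In the other lines, the ranks of Id3 and Bmp4 matched those of the score only in part. By score, Id3 and Bmp4, control line 44 ranked 2, 3 and 3 of 8, and ICSI line 20 ranked 3, 2 and 6. ICSI line 17 ranked 4, 6 and 2, and control line 45 ranked 8, 4 and 8. The part of fibroblast RNA in these levels was not tested.

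**Figure D2:**
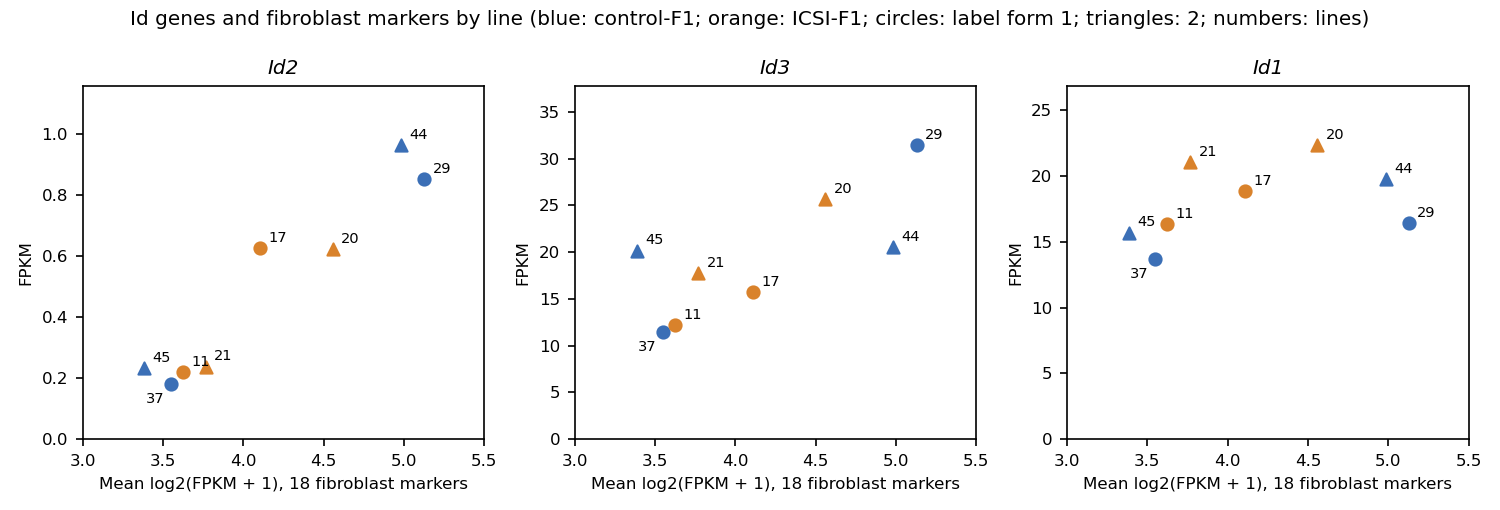
FPKM (y axes, from 0) of Id2, Id3 and Id1 against the mean log2(FPKM + 1) of 18 fibroblast markers (x axes), 1 point per line with its line number, control-F1 in blue and ICSI-F1 in orange, circles for label form 1 and triangles for label form 2. The 4 lines with Id2 at 0.622 to 0.964 FPKM are the 4 with scores of 4.11 to 5.13, and Id1 shows no such separation.

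Id4, a further Id gene that was not among the 10, was at 5.38, 8.23, 25.0 and 13.0 FPKM in control lines 29, 37, 44 and 45, and at 6.98, 10.2, 19.0 and 14.6 FPKM in ICSI lines 11, 17, 20 and 21. All lines of label form 2 lay above all lines of label form 1. The summed level of Id1 to Id4 was 33.5 to 67.7 FPKM per line, beside 72.1 to 106 FPKM for the summed E protein genes Tcf3, Tcf4 and Tcf12. Tcf3 made up most of the latter, with a mean of 73.4 ± 11.4 FPKM (SD, n = 8).

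The most abundant other genes of each remaining class of the pathway list were as follows. Among co-receptor genes, Rgmb was at 6.23 and Eng at 2.11 FPKM. Among secreted antagonist genes, Fstl1 was at 62.9 ± 31.6 FPKM (SD, n = 8) and Twsg1 at 16.3 ± 3.75 FPKM (SD, n = 8). The corepressor gene Ski, at 71.2 FPKM, and the phosphatase gene Ctdsp2, at 34.4 FPKM, led the intracellular inhibitors. Atoh8, at 7.26 FPKM, was second to Id4 among the other target genes, and Tcf12, at 11.3 FPKM, second to Tcf3 among E protein genes. In the TGF-beta and activin branch, the transducer genes Smad2 and Smad3 were at 19.5 and 14.9 FPKM.

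The genes with the profile over the 8 lines most like that of a member were found by the root mean square distance between centred log2(FPKM + 1) values, over 12000 genes. For Id1 they were A130010J15Rik (0.0594), Lgmn (0.0606) and Rras2 (0.0727), beside a median distance of 0.287 over all genes. For Id2 they were C1qtnf6 (0.0709), Osbpl5 (0.0823) and Tceal8 (0.0870), with a median of 0.352. For Id3, Tent5a was the nearest (0.0780), followed by Nfil3 (0.137) and Rcn3 (0.143), with a median of 0.485. For Bmp4 they were Gm7008 (0.0739), Dnase2a (0.0885) and Dnajc5g (0.0889), with a median of 0.285. Id2 and Bmp4, whose means were under 1 FPKM, were not among the genes searched.

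The comparison of ICSI-F1 with control-F1 GS cells asks whether birth after ICSI left a difference in the germline of the offspring. No member passed the test: 0 of the 8 tested members were called at an adjusted p under 0.05 (limma with the group as the only term, two-sided, Benjamini-Hochberg over 12000 genes), and 0 had an unadjusted p under 0.05. Over all 12000 genes, 0 (0%) were called, and 55 had an unadjusted p under 0.05. The ICSI and control lines overlapped for all 10 members, whereas they did not overlap for 0.442% of the genes tested. Id1 had the smallest unadjusted p of the members. Its mean was 16.4 ± 2.54 FPKM (SD, n = 4) for the control and 19.7 ± 2.64 FPKM (SD, n = 4) for the ICSI lines, a log2 difference of 0.25 ± 0.14 (SE) with a 95% interval of -0.06 to 0.56 (limma unadjusted p = 0.103, adjusted p = 1.0; exact permutation p = 0.171). The difference was 0.21 between the groups within label form 1 and 0.28 within label form 2. With the label form as a covariate, the SE of the Id1 difference was 0.10, its 95% interval ran from 0.013 to 0.49 and its unadjusted p was 0.0412 (limma adjusted p = 1.0). In that fit Id1 was the only member with an unadjusted p under 0.05, beside 140 of 12000 genes (1.17%), and 0 members and 0 genes were called.

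The other members had smaller differences relative to their error. The log2 difference of ICSI minus control was -0.05 for Bmpr1a (95% interval -0.57 to 0.46) and -0.06 for Bmpr2 (-0.35 to 0.23). It was 0.07 for Smad1 (-0.20 to 0.34) and -0.06 for Smad5 (-0.34 to 0.22). Wider intervals were found for Smad6, at -0.28 (-1.18 to 0.61), Smad7, at -0.18 (-0.75 to 0.38), and Id3, at -0.19 (-0.85 to 0.47). With the label form as a covariate the intervals narrowed to -0.32 to 0.21 for Bmpr1a, -0.82 to 0.26 for Smad6 and -0.39 to 0.020 for Smad7 (limma unadjusted p = 0.0717), and that of Id3 was -0.82 to 0.45. Leaving out 1 line moved the Smad6 difference between -0.59 (without ICSI line 20) and -0.00076 (without control line 45), and the Smad7 difference between -0.34 (without control line 37) and -0.034 (without control line 45). Id2, which the main limma test did not include, averaged 0.557 ± 0.408 FPKM over the control and 0.426 ± 0.229 FPKM over the ICSI lines (SD, n = 4 each; exact permutation p = 0.629). The median log2 difference of the 8 tested members was -0.06, beside -0.01 over all genes tested. Among the 49 tested genes of the 73 others in the pathway list, 25 had a positive and 24 a negative difference, 0 were called and 0 had an unadjusted p under 0.05.

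Fibroblast markers were lower on average in the ICSI lines (median log2 difference -0.26, with 0 of 18 positive), and none of the 18 was called. The 18 markers come from the same lines and are not independent observations. Control lines held both extremes of the fibroblast score, 5.13 in line 29 and 3.38 in line 45. Whether the ICSI difference itself differed between the forms was tested with an interaction term. This test called 0 of the 8 members and 0 of 12000 genes (0%), with 0 members and 147 genes at an unadjusted p under 0.05. Id3 had the largest interaction term in size among the members, 0.50 ± 0.57 (SE) on the log2 scale, with a group difference of -0.44 within label form 1 and 0.07 within label form 2. Without control line 29 the term was -0.19.

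**Figure D3:**
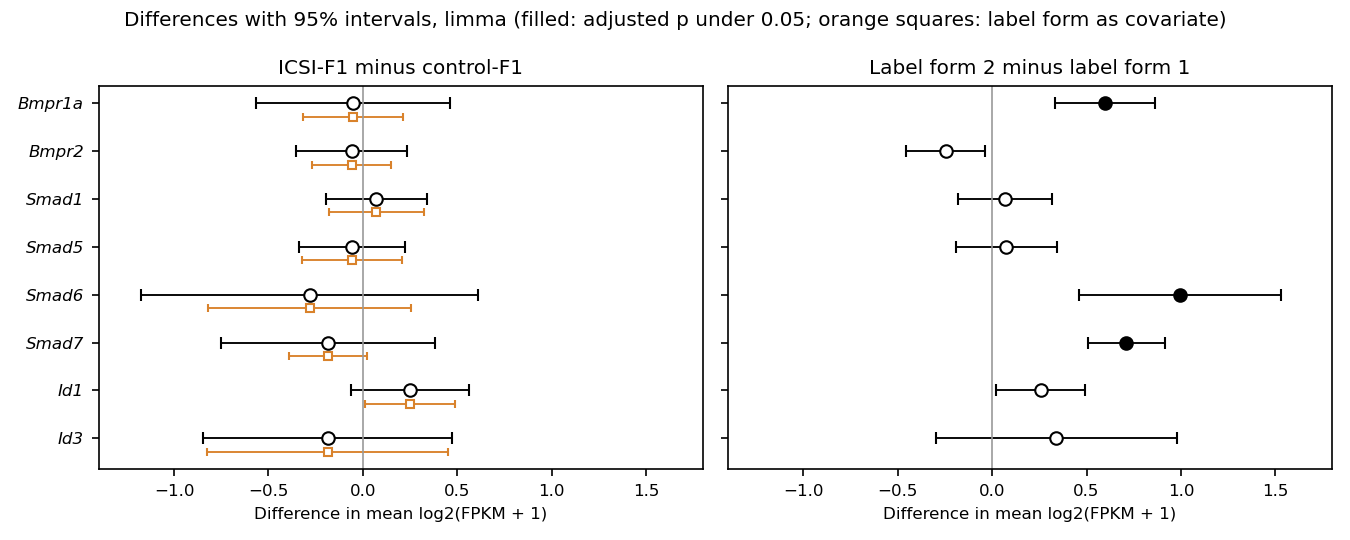
Difference in mean log2(FPKM + 1) (x axis) of ICSI-F1 minus control-F1 (left) and of label form 2 minus label form 1 (right) for the 8 members tested with limma, with 95% intervals as bars. Filled points have an adjusted p under 0.05, and orange squares on the left are from the fit with label form as covariate. On the left all 8 intervals of the fit on group alone cross 0, and with the covariate that of Id1 (0.013 to 0.49) does not; on the right Bmpr1a, Smad6 and Smad7 are filled.

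Between label forms, with the group as covariate, Smad7, Bmpr1a and Smad6 were higher in label form 2, and no member was called lower. Thus 3 of 8 tested members were called higher, beside 10.2% of all genes tested, and 0 of 8 were called lower, beside 5.76%. All lines of label form 2 lay above all lines of label form 1 for Bmpr1a and Smad7, as for 16% of all genes tested, and all lay below for Bmpr2, as for 10.8%. Smad7 rose from 6.18 ± 0.345 to 10.8 ± 1.42 FPKM (SD, n = 4 each), a log2 difference of 0.71 ± 0.09 (SE; limma adjusted p = 0.00792). The difference was 0.82 within the control lines and 0.60 within the ICSI lines.

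Bmpr1a rose from 25.3 ± 2.93 to 38.8 ± 4.58 FPKM (SD, n = 4 each), a log2 difference of 0.60 ± 0.12 (SE; limma adjusted p = 0.0173), with 0.61 within the control and 0.59 within the ICSI lines. Smad6 rose from 1.55 ± 0.484 to 4.24 ± 1.70 FPKM (SD, n = 4 each), a log2 difference of 0.99 ± 0.24 (SE; limma adjusted p = 0.0291). The forms overlapped for Smad6, since control line 29 of label form 1 (2.26 FPKM) exceeded ICSI line 21 of label form 2 (2.16 FPKM). The Smad6 call was lost without any 1 of control lines 37, 44 and 45 or ICSI lines 11, 17 and 20, where the adjusted p was 0.0532 to 0.0892. The Bmpr1a call was lost without control line 44 (adjusted p = 0.0502), ICSI line 11 (0.0620) or ICSI line 17 (0.0566), whereas Smad7 passed without any 1 line. In the fits that lost the call, the log2 difference was 0.56, 0.61 and 0.59 for Bmpr1a, in that order. It was 0.82 to 1.10 for Smad6. Fewer genes of the 12000 were called in each of these fits as well, 210 to 1209 beside 1917 with all lines.

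The remaining members did not pass. Bmpr2 averaged 3.46 ± 0.112 FPKM over label form 1 and 2.76 ± 0.155 FPKM over label form 2 (SD, n = 4 each), a log2 difference of -0.25 ± 0.09 (SE; limma adjusted p = 0.0967). It was called lower by limma-voom on the recovered reads (adjusted p = 0.0361). Id1 had a log2 difference of 0.26 ± 0.10 (SE; limma adjusted p = 0.118), Smad5 of 0.07 and Smad1 of 0.07. Id3 had a difference of 0.34 ± 0.28 (SE; limma adjusted p = 0.416), which became 0.67 with an adjusted p of 0.0407 when control line 29 was left out. Id2 and Bmp4, below the minimum mean of the main limma fit, were tested by exact permutation (p = 0.714 and 0.314). Neither was called by limma without that minimum.

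Several other genes of the pathway were also higher in label form 2. Of the 49 tested, 10 were called higher, beside 10.2% of all genes tested, and 0 lower, beside 5.76%. The median log2 difference of the 49 was 0.13, beside 0.03 over all genes. The shares over all genes also apply to the counts by class that follow. By class, 2 of 3 ligand genes were called, Bmp7 (0.65, adjusted p = 0.0207) and Bmp6 (0.58, adjusted p = 0.0193). Of 9 secreted antagonist genes, 2 were called, namely Fst, which encodes follistatin, an antagonist of activin and some BMPs (1.40, adjusted p = 0.0107), and Twsg1 (0.50, adjusted p = 0.0268). Of 8 intracellular inhibitor genes besides Smad6 and Smad7, 3 were called: the phosphatase gene Ctdsp2 (0.48, adjusted p = 0.0302), the SMAD corepressor gene Skil (0.45, adjusted p = 0.0334) and the phosphatase gene Ppm1a (0.33, adjusted p = 0.0375). These values are log2 differences from the limma fit.

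Among 7 target genes besides the Id members, Id4 (log2 difference 1.11, limma adjusted p = 0.0210) and Msx1 (0.60, adjusted p = 0.0320) were called. None of the 5 other receptor, 3 co-receptor or 3 E protein genes passed, and nor did Smad4 (0.32, adjusted p = 0.0590). Of 10 genes of the TGF-beta and activin branch, Tgfb1 was called (1.15, adjusted p = 0.0326). The number of these other genes called fell to 1 without control line 37 or ICSI line 11, to 2 without ICSI line 17, to 4 without control line 29, to 5 without control line 44 and to 6 without ICSI line 20, and it was 6 without the filter on low values.

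Other measures also differed between the label forms, some higher and some lower in label form 2. Of the 8 germ cell genes, a list that includes Id4, 6 were called higher in label form 2, beside 10.2% of all genes tested. Zbtb16 (log2 difference 0.02) and Nanos2 (0.48) were not called. The summed level of the 8 was 609 to 730 FPKM in the first form and 883 to 1044 FPKM in the second. Kit, which marks differentiating spermatogonia, was called lower (log2 difference -0.80, limma adjusted p = 0.0351), as were 5.76% of all genes tested. The other listed markers of these cells, Stra8 (-1.07, limma adjusted p = 0.105) and Sohlh1 (-0.41, limma adjusted p = 0.0867), were lower but not called. Of the Sertoli cell markers, Sox9 was called higher and Wt1 lower, and of the endothelial markers Kdr was called higher. None of the 18 fibroblast markers was called, and their summed level was 316 to 1078 FPKM in the first form and 281 to 1004 FPKM in the second. The part of germ cell content, read depth or software version in the differences of Smad7, Bmpr1a and Smad6 was not tested, and these cannot be told apart from whatever else the title spelling marks.

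**Figure D4:**
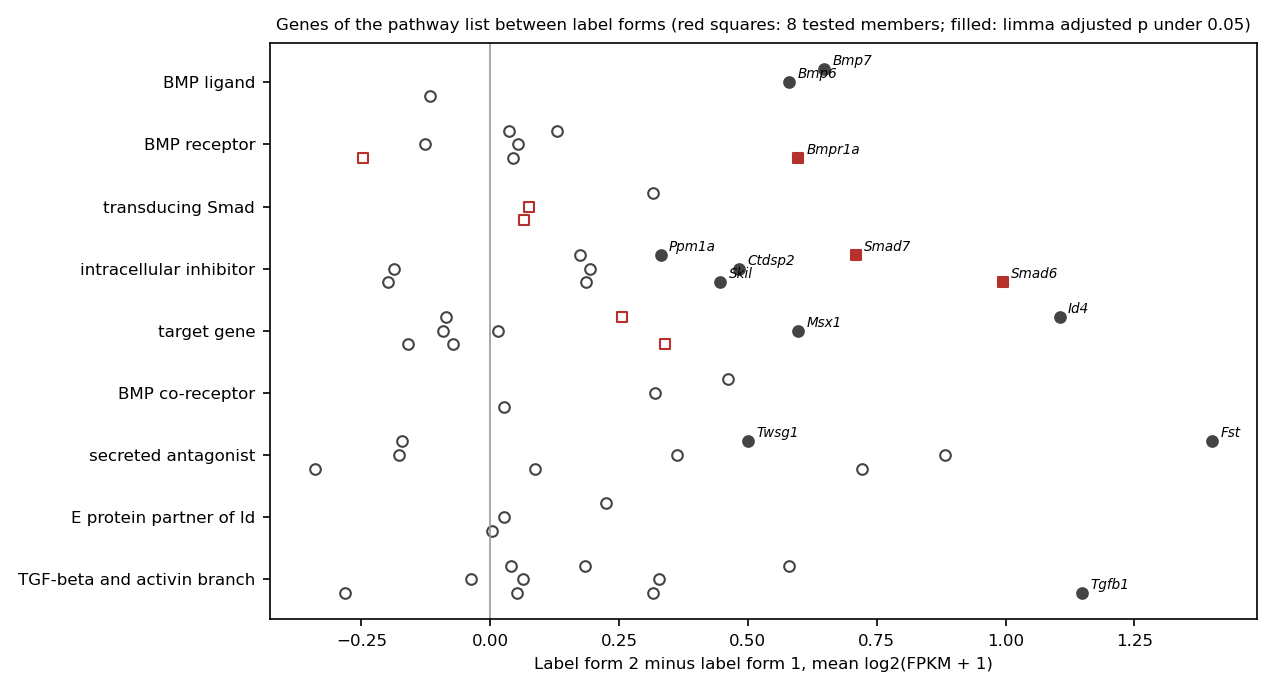
Log2 difference of label form 2 minus label form 1 (x axis, mean log2(FPKM + 1)) for the tested genes of the pathway list by class (rows), with members as red squares and other genes as circles. Points spread vertically within a row only for legibility, and filled points, which are named, have a limma adjusted p under 0.05; all filled points lie to the right of 0.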

How the data were processed

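RNA-seq of 8 GS cell lines was analysed from 1 deposited table. The authors deposited FPKM values, made from single reads of 76 bases mapped to mm10 with STAR and counted with HTSeq; the study's methods call the levels TPM, but the columns are FPKM. Tool versions in the submitters' notes differ between label forms (cutadapt 3.4 or 1.16, STAR 2.7.9a or 2.6.0c, HTSeq 0.13.5 or 0.11.2, DESeq2 1.30.1 or 1.22.2). Different library kits are named in the labels and in the methods, so strand use is uncertain, and exons of Bmp4 and Bmpr1a overlap opposite-strand genes, Gm15217 (0.0206 FPKM) and Gm17110 (0.0827 FPKM). The deposited log2 fold changes and adjusted p-values of the authors' comparison were not used.

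The 12000 genes whose mean reached 1 FPKM were tested with limma 3.58.1 in R 4.3.3 (lmFit, eBayes with trend) on log2(FPKM + 1), which understates changes of low genes, with a threshold of 0.05 on the Benjamini-Hochberg adjusted p. A linear model replaced the study's count model because the values are not counts. All 8 lines were fitted with the group alone, with form and group, or with their interaction. Single genes were tested by exact two-sided permutation over 70 assignments (smallest p 0.0286). Whole reads were recovered within 0.01 for 98.2% of tested genes, using GENCODE exon lengths of an earlier release than the authors'. Intervals are at 95%. The tests were checked on simulated reads with the same spread setting for every gene. Where an ICSI difference was simulated, the label forms did not differ, unlike in these data. The check therefore does not give the power of the ICSI test here. The members, pathway and marker lists were chosen with earlier results of these data known. Named were the members, the 2 highest other genes of each class, up to 10 called pathway genes, the 3 nearest profiles of each of Id1, Id2, Id3 and Bmp4, and marker genes.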

Additional observations from a re-analysis of the deposited data

How the results depend on the processing

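Directions and calls were recomputed with other pseudocounts, filters and scalings, without trend, with limma-voom on recovered reads and without each line in turn. For ICSI against control, 0 genes were called in every setting except without a filter on low values, where 1 was, and 0 members were called in all. Between label forms 1917 genes were called, 1255 without a filter and 210 (without ICSI line 11) to 2691 (without ICSI line 21) when 1 line was left out. Without control line 37, ICSI line 17, control line 44, control line 29 or control line 45 the count was 287, 429, 675, 1044 or 1061, and without ICSI line 20 it was 1209. Of those calls, 64.0% were higher in label form 2, and 51.2% after quantile normalization. Between 1 and 4 members were called when 1 line was left out, and Smad6 also missed the threshold without a filter (adjusted p = 0.0684).

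Signs turned when 1 line was left out for some small differences. The ICSI difference then ranged from -0.22 to 0.079 for Bmpr1a and from -0.43 to 0.029 for Id3, and the label form difference of Smad5 from -0.014 to 0.15. The interaction term ranged from -0.21 to 0.17 for Bmpr1a, -0.32 to 0.056 for Smad5, -0.67 to 0.29 for Smad6, -0.088 to 0.23 for Id1 and -0.19 to 1.196 for Id3. The exact test was not repeated without single lines, since 4 lines against 3 cannot give a p below 0.0571. Bmp4 and Id2 are limited by depth, at 11 to 84 reads per line.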
